A study of Nannochloropsis oceanica with 6 samples.

Results

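Light capture and photosynthetic electron transport were examined through 43 genes, chosen from the 10481 in the tables by their annotation alone. A gene was taken when its Swiss-Prot, NCBI protein or KEGG orthology text named a fucoxanthin or chlorophyll-binding protein, a light-harvesting protein, a photosystem or a psb subunit, or when it lay in the KEGG photosynthesis pathway. The 3 genes that Swiss-Prot calls stress-related (LHCSR) were left out. Of the 43, 21 were antenna genes. The other 22, called photosystem and electron transport genes, were annotated to the photosystems, the electron transport chain or ATP synthase, except ylmH, whose displayed description names another function. The cultures were of the oil-storing marine microalga Nannochloropsis oceanica, strain IMET1. Cells were first grown in modified f/2 medium at 25 °C, bubbled with 1.5% CO2, then washed and restarted in 800 mL at an optical density (OD750) of 2.5. Light was continuous at about 50 µmol photons per square metre and second. Nitrogen-replete cultures (NR, n = 3) went into complete medium and nitrogen-deprived cultures (ND, n = 3) into medium without nitrogen, and cells were taken after 72 h. Both groups were the same strain, and the labels name no genetic change.

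Antenna proteins bind chlorophyll and carotenoids in the thylakoid membrane and pass the energy of absorbed light to the photosystems. Photosystem II splits water, the cytochrome b6f complex moves electrons on to photosystem I, and ferredoxin and its reductase deliver them to NADP, while ATP synthase uses the proton gradient. Nannochloropsis has chlorophyll a and violaxanthin as main antenna pigments and lacks chlorophyll b and fucoxanthin, so names such as fucoxanthin-chlorophyll a-c binding protein give the nearest described relative and not the pigments bound here. Many core subunits are encoded in the plastid. The RefSeq-derived table for this organism (assembly ASM5162214v2) lists 9 psa, 19 psb, 8 pet and 7 atp genes on the plastid, and none of its 160 genes could be matched to the gene IDs used here, so these core subunits were not analysed here. No psa gene was among the 43.

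Libraries held 3972986 to 5693513 estimated counts. All 43 genes passed the filter on low counts and were tested with the other genes, 9329 in all, by edgeR's quasi-likelihood test with Benjamini-Hochberg adjustment over all of them. A gene is said to rise or fall when its adjusted p was under 0.05. Levels are CPM (reads of a gene relative to the library) after trimmed-mean scaling (normalised CPM), which do not account for gene length, and changes are log2 of ND over NR ± SE. Where levels of different genes are compared, TPM (scaled for length, and summing to the same total in every library) is used. Both are relative to the other transcripts of the library, and the amount of RNA per cell was not measured. The labels describe the 3 cultures of a condition as separate, started from equal portions of washed cells, so the p-values measure the spread between such parallel cultures.

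Every antenna gene fell without nitrogen, while most but not all of the photosystem and electron transport genes fell. All 21 antenna genes were lower (35.5% of all genes tested were), with a median change of -2.85, or 7.21 times, and a range of -7.27 to -1.65. Of the 22 photosystem and electron transport genes 16 fell, 1 rose (35.7% of all genes rose) and 5 did not pass the test. The median of the 22 was -0.68. The 1 rise was not called at an adjusted p of 0.01, nor with a replicate block, RLE factors or DESeq2. In either direction 38 of the 43 were called, against 71.2% of all genes, whose median change was 0.02. A fall of at least 2 times was seen in 21 of 21 antenna and 9 of 22 photosystem and electron transport genes (12.5% of all genes), and one of at least 4 times in 17 and 3 of them (4.86%). For 21 and 17 genes of these classes, every ND culture lay below every NR culture, which held for 36.2% of all genes. The difference between the classes was not tested, since the genes were chosen with results known. With library totals alone, which move the median of all genes to 0.34, the class medians were -2.53 and -0.36, and with that scaling 21 antenna genes and 14 of the others were still lower.

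**Figure D1:**
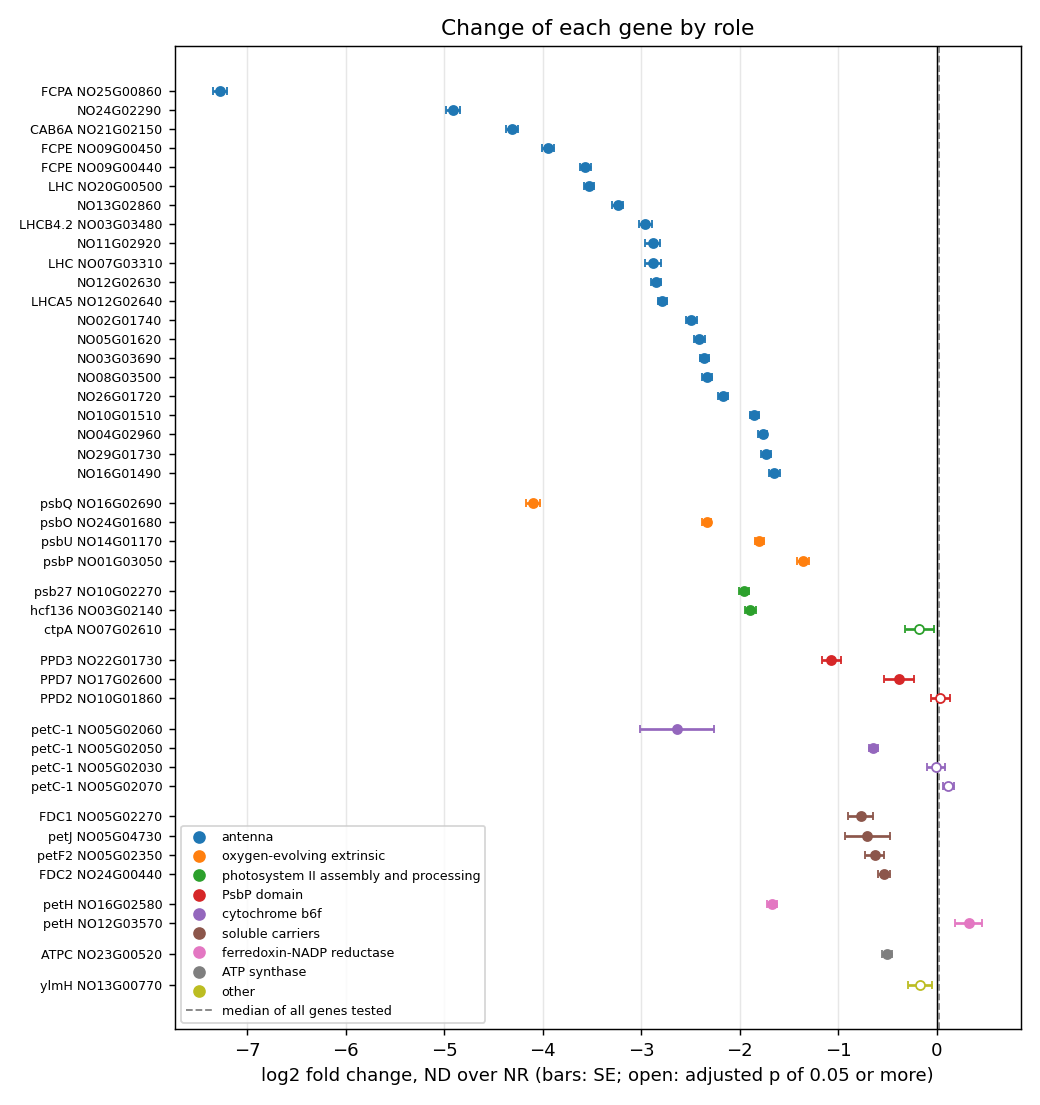
Change of each gene on the log2 scale (ND over NR, bars are SE), grouped by role; open circles did not pass the adjusted p of 0.05 and the dashed line is the median of all 9329 genes tested. All 21 antenna genes lie at -1.65 or below, and 15 of the other 22 genes lie nearer to 0 than any of them.

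The classes overlapped. Of the 22 photosystem and electron transport genes 15 changed by less than the least changed antenna gene, and 7 lay within the antenna range: 3 of the 4 genes annotated as extrinsic subunits of the water-splitting complex, 2 assembly factors, 1 cytochrome b6f model and 1 ferredoxin-NADP reductase.

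In terms of share, antenna genes held 4.14%, 4.18% and 4.01% of all TPM in NR cultures 1 to 3 and 0.813%, 0.794% and 0.796% in ND cultures 1 to 3. Photosystem and electron transport genes held 1.25%, 1.26% and 1.25% in NR and 0.558%, 0.548% and 0.565% in ND. Neither class overlapped between the conditions. The means were 4.11 ± 0.0854% and 0.801 ± 0.0102% for the antenna (SD, n = 3) and 1.25 ± 0.00793% and 0.557 ± 0.00867% for the other class. The log2 ratio of summed antenna to summed photosystem and electron transport TPM, which is formed within a library and does not depend on the scaling between libraries, was 1.726, 1.726 and 1.685 in NR and 0.541, 0.535 and 0.495 in ND. Among the 100 genes with the highest TPM of a library, 16 or 17 were antenna genes in NR and 1 or 2 in ND.

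**Figure D2:**
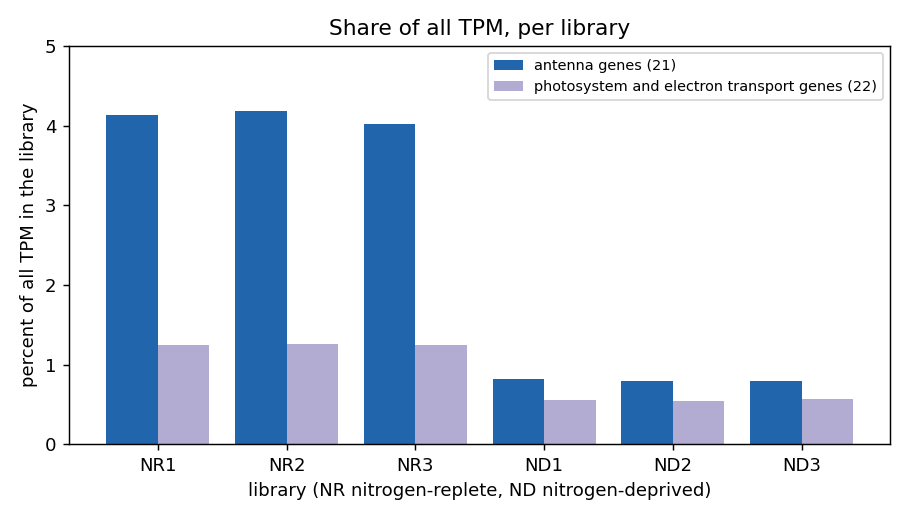
Share of all TPM held by the 21 antenna genes and the 22 photosystem and electron transport genes in each of the 6 libraries. The antenna bars stand at 4.01% to 4.18% in NR and 0.794% to 0.813% in ND, and the other class at 1.25% to 1.26% and 0.548% to 0.565%.

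The antenna genes fell into a graded series, with 7 changing by more than 3 on the log2 scale, 10 by 2 to 3 and 4 by less than 2. The deepest fall was that of FCPA (NO25G00860). Its Swiss-Prot relative is fucoxanthin-chlorophyll a-c binding protein A of the diatom Phaeodactylum tricornutum, but its NCBI description is LHCSR, so the 2 annotations differ. Its level was 12076, 12389 and 11275 normalised CPM in NR cultures 1 to 3 and 83.6, 81.2 and 67.8 in ND cultures 1 to 3, a change of -7.27 ± 0.07 or 154 times (adjusted p = 2.83e-24). The groups were far apart, and by TPM the gene went from place 13 among all genes in NR to place 5510 in ND. Its estimated counts were not whole, as happens when reads are split among gene models (shared reads from here on), and its value is uncertain to that extent. NO24G02290, an antenna gene with a Chattonella marina relative, had 849, 773 and 823 CPM in NR and 27.7, 25.6 and 27.9 in ND (-4.91 ± 0.07, 30.1 times, adjusted p = 6.48e-22). CAB6A (NO21G02150), named for a tomato chlorophyll a-b binding protein of photosystem I, had 801, 819 and 777 CPM in NR and 43.6, 38.3 and 39.3 in ND (-4.31 ± 0.06). Counts of both were whole in all 6 libraries.

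FCPE was present as 2 models with neighbouring gene IDs, NO09G00450 and NO09G00440, both with shared reads. The NCBI description of both is LhcSR, unlike their Swiss-Prot name. The first had 1334, 1507 and 1346 CPM in NR and 87.9, 95.8 and 87.3 in ND, a change of -3.95 ± 0.06. The second had 1934, 2055 and 1843 CPM and 153, 163 and 175 CPM, a change of -3.57 ± 0.06. Summed, they fell from 3340.0 ± 197 to 254 ± 11.4 CPM (-3.72 ± 0.05), a value that does not depend on how reads were divided between the pair. LHC (NO20G00500), named for barley chlorophyll a-b binding protein 1B-21, had 1682, 1767 and 1637 CPM in NR and 148, 148 and 144 in ND (-3.53 ± 0.05), with whole counts. The other LHC gene, NO07G03310, has the same nearest relative and changed by -2.88 ± 0.08, from 295 ± 13.7 to 40.3 ± 5.83 CPM. NO13G02860 was the last of the 7 genes past 3 (-3.24 ± 0.06, 1596 ± 107 to 169 ± 6.79 CPM).

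In the middle of the series lay LHCB4.2 (NO03G03480), named for CP29, a linker between the core of photosystem II and its outer antenna in plants. It had 363, 386 and 375 CPM in NR and 52.4, 44.8 and 47.7 in ND (-2.96 ± 0.06). The neighbouring models NO12G02630 and LHCA5 (NO12G02640), the latter named for a photosystem I antenna protein of Arabidopsis, changed by -2.85 ± 0.05 and -2.78 ± 0.04. In NR the first had 1612, 1538 and 1539.6 CPM and in ND 218, 217 and 216. LHCA5 had 3155, 3281 and 3083 CPM in NR and 461, 462 and 459 in ND, and both were widely separated by condition. Their levels per length were close as well, at 3067 ± 59.1 and 3093 ± 106 TPM in NR and 557 ± 2.08 and 581 ± 2.52 TPM in ND. The log2 ratio of the first to the second within a library averaged -0.01 ± 0.06 in NR and -0.06 ± 0.00 in ND, and the groups overlapped. In the FCPE pair, by contrast, the ratio of NO09G00450 to NO09G00440 was lower in every ND culture (-0.34 ± 0.05 in NR and -0.72 ± 0.13 in ND), a ratio that the division of shared reads enters. Other genes between 2 and 3 were NO11G02920 (-2.88 ± 0.07), NO02G01740 (-2.49 ± 0.05), NO05G01620 (-2.41 ± 0.06), NO03G03690 (-2.36 ± 0.05), NO08G03500 (-2.33 ± 0.05) and NO26G01720 (-2.17 ± 0.05). NO08G03500 had 1439, 1362 and 1309 CPM in NR and 275, 268 and 274 in ND. NO05G01620 had 1753, 1699 and 1828 CPM in NR and 361, 306 and 327 in ND.

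The 4 least changed antenna genes still fell by more than 3 times. They were NO10G01510 (-1.85 ± 0.04, 2069.6 ± 40.6 to 573 ± 4.57 CPM), NO04G02960 (-1.77 ± 0.04, 1882 ± 34.2 to 552 ± 3.39 CPM), NO29G01730 (-1.73 ± 0.05) and NO16G01490 (-1.65 ± 0.06). The NCBI description of NO04G02960 names CP26, another minor antenna protein of photosystem II in plants. NO16G01490 had 438, 451 and 389.8 CPM in NR and 135, 139 and 134 in ND, so that even here the groups were well separated.

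**Figure D3:**
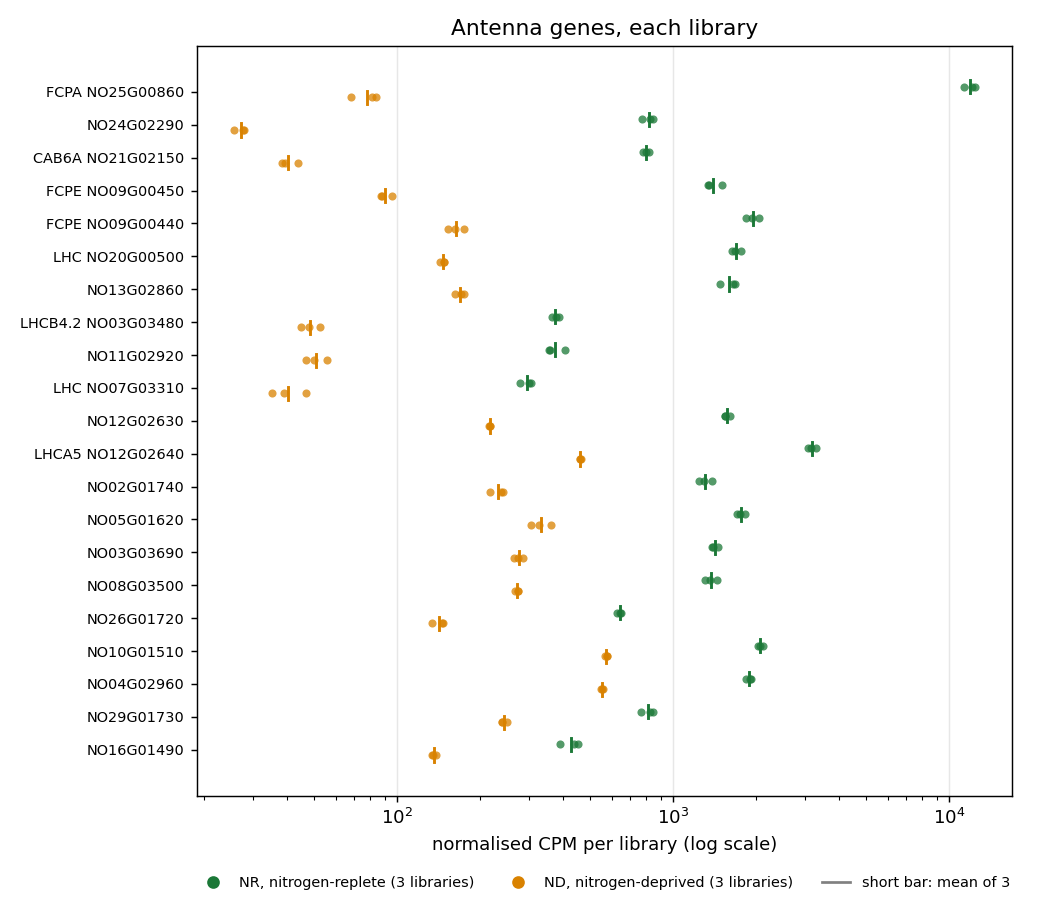
Normalised CPM of the 21 antenna genes in each library on a log axis, ordered from the deepest fall at the top; short bars are means of 3. In none of the 21 do the 3 ND cultures reach the 3 NR cultures, which held for 36.2% of all genes tested in this direction.

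The order of antenna levels changed with the condition. In NR the highest TPM were those of FCPA (5005 ± 231), NO08G03500 (4101 ± 179), NO05G01620 (3716 ± 136), LHCA5 (3093 ± 106) and NO12G02630 (3067 ± 59.1). Each of the first 3 lay above the next in every NR library, while LHCA5 and NO12G02630 overlapped. FCPA held 12.1%, 12.5% and 11.9% of antenna TPM in NR cultures 1 to 3. In ND, FCPA was 20th of 21 with 41.8 ± 4.48 TPM, overlapping NO24G02290 at 40.6 ± 1.81, and held 0.461% to 0.553% of antenna TPM. NO08G03500 then led with 1079 ± 8.86 TPM, 13.3% to 13.6% of the antenna total, and NO05G01620 followed with 917 ± 72.1. NO04G02960 stood ninth in NR (1970.0 ± 34.2 TPM), with no clear gap to NO20G00500, and was the third in ND (748 ± 5.44 TPM). The log2 ratio of FCPA to NO08G03500 was 0.23, 0.35 and 0.28 in NR cultures 1 to 3 and -4.59, -4.60 and -4.89 in ND. Across the 21 genes the level in NR was not closely related to the size of the fall (Spearman 0.061, Pearson -0.207; 0.229 and 0.203 without FCPA), given as a description, since all genes share the same libraries. The level in NR and the level in ND had a Spearman correlation of 0.538 and a Pearson correlation of 0.402 across the 21 genes.

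**Figure D4:**
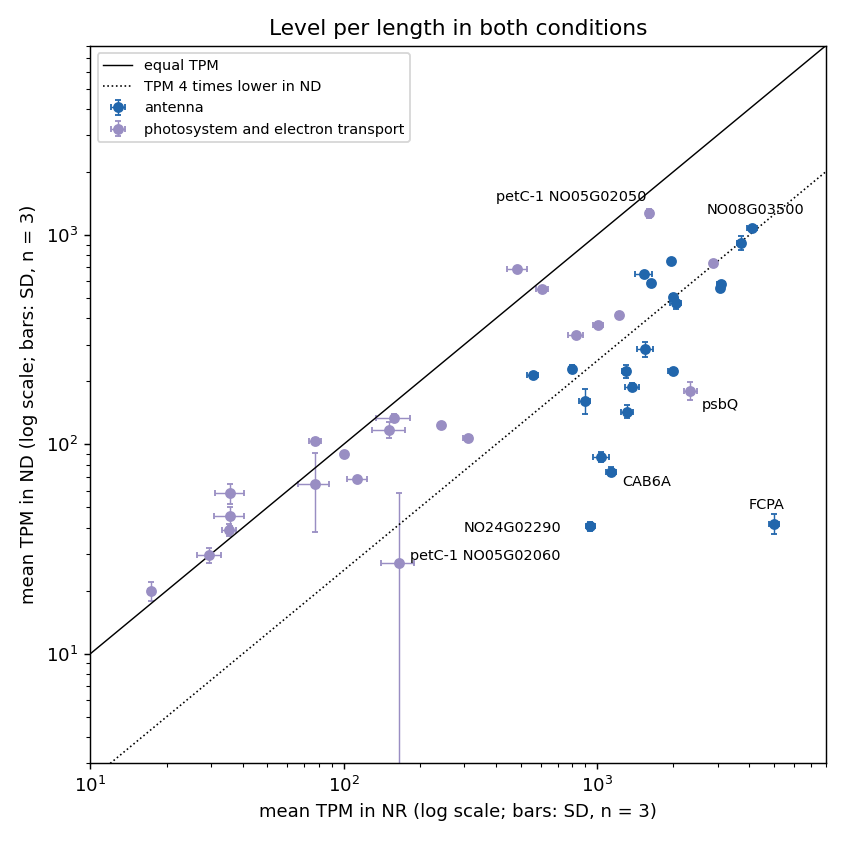
Mean TPM of each of the 43 genes in NR and ND on log axes (bars are SD, n = 3; the lower bar of petC-1 NO05G02060 runs off the axis because its SD exceeds its mean in ND). The dotted line marks a TPM 4 times lower in ND. All antenna genes lie below the line of equal TPM, and the other genes lie on both sides of it; FCPA is at 5005 TPM in NR and 41.8 in ND.

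Annotation subgroups of the antenna overlapped in their changes. The 10 genes assigned to the orthology group LHCA1 had a median change of -2.87 and a range of -4.31 to -2.17. The 4 with no orthology group, which include FCPA and both FCPE models, had a median of -3.76 and ranged from -7.27 to -1.73. The 7 assigned to LHCA4 had a median of -2.33 and ranged from -4.91 to -1.65. The names LHCA1 and LHCA4 are those of photosystem I antenna proteins of plants and do not show which photosystem the algal proteins serve. For 8 of the 21 the NCBI description was LHCSR or LI818, a stress-related antenna protein of green algae, although Swiss-Prot placed them elsewhere. These 8 include all 4 genes with no orthology group, of which FCPA and both FCPE models have shared reads. All 8 fell, against 35.5% of all genes tested, with a median of -2.82. The other 13 had a median of -2.85. In the 18 antenna genes with whole counts the median was -2.64.

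Among the photosystem II genes, the 4 assigned by orthology to extrinsic proteins all fell (35.5% of all genes tested did). Extrinsic proteins sit on the lumen side and stabilise the manganese cluster that splits water. The psbO gene (NO24G01680), the main manganese-stabilising protein, had 2975, 2944 and 2875 CPM in NR cultures 1 to 3 and 596, 570.1 and 577 in ND cultures 1 to 3 (-2.34 ± 0.04, 5.05 times, adjusted p = 3.01e-20). The gene assigned to psbQ by orthology only (NO16G02690) had 686, 692 and 624 CPM and 36.8, 36.1 and 43.0 CPM, the deepest fall outside the antenna (-4.10 ± 0.07, 17.2 times). For psbU (NO14G01170), named for a diatom protein, the values were 1522, 1513 and 1627 CPM in NR and 451, 453 and 432 CPM in ND (-1.80 ± 0.05), with shared reads. The gene assigned to psbP (NO01G03050) went from 193 ± 3.65 to 75.2 ± 2.16 CPM (-1.36 ± 0.06). Its NCBI description is a PsbP-like protein 1, so its place among the extrinsic proteins is uncertain. None of these 4 overlapped between the conditions. Over all genes tested, 36.2% had every ND culture below every NR culture. The unequal changes can be restated as proportions within a library, for pairs picked after their values were seen. The log2 TPM ratio of psbQ to psbO went from -0.30 ± 0.07 to -2.03 ± 0.14. That of psbU to psbO went from -1.51 ± 0.08 to -0.98 ± 0.05, and neither ratio overlapped. The 4 genes together held 0.634% to 0.658% of all TPM in NR and 0.14% to 0.143% in ND.

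Of the 3 genes for assembly and processing of photosystem II, 2 fell, against 35.5% of all genes tested. The psb27 gene (NO10G02270), a lipoprotein that binds photosystem II during assembly and repair, had 741, 717 and 708 CPM in NR and 190.2, 190.0 and 179 in ND (-1.95 ± 0.05). For hcf136 (NO03G02140), a factor needed to assemble the reaction centre in plants, the values were 332, 336 and 356 CPM in NR and 90.8, 92.8 and 92.2 CPM in ND (-1.89 ± 0.06). The ctpA gene (NO07G02610), a protease that trims the D1 protein, was at 18.5, 18.2 and 19.1 CPM in NR and 14.4, 16.8 and 17.8 in ND (-0.18 ± 0.15, adjusted p = 0.287) and did not pass the test, although the ND values lay below the NR values. Its counts were low, 66 to 114 per library. Genes for PsbP-domain proteins of less defined function were mixed. PPD3 (NO22G01730) fell from 60.4 ± 4.90 to 28.7 ± 0.317 CPM (-1.07 ± 0.10). PPD7 (NO17G02600, shared reads) had 22.4, 19.5 and 17.8 CPM in NR and 16.8, 14.3 and 14.9 in ND (-0.39 ± 0.15, adjusted p = 0.0281). PPD2 (NO10G01860) had 43.8, 43.7 and 39.7 CPM in NR and 45.2, 41.7 and 43.7 in ND with no call (+0.03 ± 0.09, adjusted p = 0.755). The call of PPD7 was lost with upper-quartile factors, library totals alone, DESeq2 and both FPKM fits (adjusted p 0.104, 0.686, 0.107, 0.79 and 0.79), and without ND culture 2 or 3 or NR culture 1 (adjusted p 0.0824, 0.0709 and 0.149). PPD2 was called higher in both FPKM fits (+0.38 in each) and with library totals alone (+0.35).

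**Figure D5:**
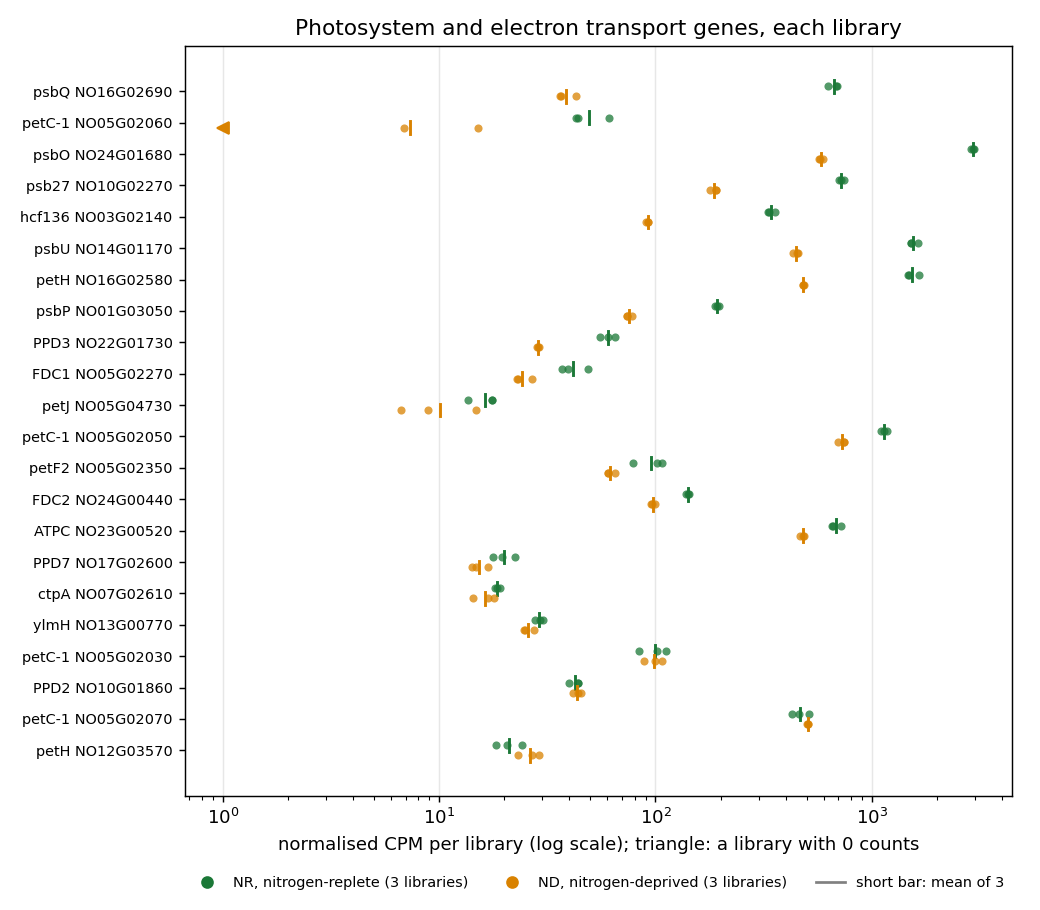
Normalised CPM of the 22 photosystem and electron transport genes in each library on a log axis, ordered from the deepest fall at the top; short bars are means of 3 and the triangle marks 1 ND library with no count. The psb, psb27 and hcf136 genes and petH NO16G02580 separate widely by condition, while the points of PPD2 and the petC-1 models NO05G02030 and NO05G02070 overlap.

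The Rieske iron-sulfur subunit of the cytochrome b6f complex, petC-1, was annotated in 4 models with close gene IDs (NO05G02030, NO05G02050, NO05G02060 and NO05G02070), which shared reads. The most abundant, NO05G02050, had 1138, 1103 and 1175 CPM in NR and 742, 695 and 744 in ND (-0.65 ± 0.05, adjusted p = 9.02e-11). NO05G02070 had 459, 429 and 510.4 CPM in NR and 508, 499.9 and 507 in ND (+0.12 ± 0.05, adjusted p = 0.0664). NO05G02030 had 112, 102 and 83.8 and 88.8, 99.3 and 108 CPM (-0.01 ± 0.09, adjusted p = 0.938). The groups of both overlapped, and neither passed the test. NO05G02070 was called higher with upper-quartile factors (+0.22), library totals alone (+0.43), both FPKM fits (+0.464 and +0.465) and without NR culture 3 (+0.18). NO05G02030 was called higher with library totals alone (+0.31, adjusted p = 0.00492). NO05G02060 was called lower (43.1, 44.0 and 60.8 CPM in NR; 0, 6.86 and 15.2 in ND; -2.63 ± 0.37), but ranged from 0 to 97.1 estimated counts among the ND cultures, and the call was lost with DESeq2 (adjusted p = 0.112) and with log2(FPKM + 0.1) in limma (adjusted p = 0.059). Its change was -3.75 without ND culture 3, -3.70 with log2(FPKM + 1) and -4.84 with log2(FPKM + 0.1). The division of reads between these models is uncertain, and their sum does not depend on it: 1752, 1679 and 1830 CPM in NR and 1340, 1301 and 1374 in ND, a change of -0.39 ± 0.04 (adjusted p = 1.27e-07). The summed estimated counts were still not whole, so reads shared with models outside the 4 leave some uncertainty in the sum. Cytochrome b6f models held 0.221% to 0.242% of all TPM in NR and 0.196% to 0.213% in ND. By TPM NO05G02050 was 62nd of all genes in NR and 50th in ND, above every antenna gene in ND.

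All 4 genes for soluble electron carriers fell (35.5% of all genes tested did), each by less than 2 times. FDC1 (NO05G02270), named for a ferredoxin C of Arabidopsis, had 39.4, 36.9 and 48.8 CPM in NR and 22.8, 23.1 and 26.8 in ND (-0.77 ± 0.12). FDC2 (NO24G00440), also named for a ferredoxin C, had 143, 142 and 138 and 95.5, 99.6 and 95.9 CPM (-0.54 ± 0.06). Neither overlapped between the conditions, a separation that 36.2% of all genes tested had in this direction. The ferredoxin gene petF2 (NO05G02350, shared reads) had 107, 78.4 and 102 CPM in NR and 60.2, 65.0 and 60.6 in ND (-0.63 ± 0.10), but was not called in the FPKM fits, where adjusted p was 0.0679 and 0.0705. The petJ gene (NO05G04730), cytochrome c6, a carrier between the b6f complex and photosystem I, had 17.5, 17.6 and 13.6 CPM in NR and 14.8, 6.68 and 8.92 in ND (-0.70 ± 0.23, adjusted p = 0.00982). The groups overlapped, the counts were only 37 to 72 per library, and the call was lost without ND culture 2 (-0.49, adjusted p = 0.0581), in both FPKM fits (adjusted p = 0.261 and 0.265) and with library totals alone (-0.39, adjusted p = 0.132).

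The 2 genes assigned to petH, ferredoxin-NADP reductase, which passes electrons from ferredoxin to NADP, differed in direction. NO16G02580, named in Swiss-Prot for a rice embryo isozyme, had 1488, 1649 and 1464 CPM in NR and 482, 484 and 481 in ND (-1.67 ± 0.05, 3.18 times). NO12G03570, whose NCBI description is a hypothetical protein, was the single gene called higher, with 24.1, 20.6 and 18.3 CPM in NR and 23.2, 28.9 and 26.8 in ND (+0.32 ± 0.14, adjusted p = 0.0435). This rise was small, its groups overlapped, and it lost the call with the replicate block, RLE factors and DESeq2 (adjusted p 0.0593, 0.0523 and 0.164) and without ND culture 2 or 3 or NR culture 2 or 3 (adjusted p 0.0945 to 0.17). NO16G02580 was the more abundant per length in both conditions, with 825 ± 57.2 against 35.7 ± 4.73 TPM in NR and 334 ± 1.49 against 58.3 ± 6.61 in ND. The log2 ratio of the pair within a library went from 4.54 ± 0.22 to 2.52 ± 0.16, without overlap. ATPC (NO23G00520), the gamma chain of the chloroplast ATP synthase, changed by -0.51 ± 0.05 (663, 721 and 655 CPM in NR; 488, 479.7 and 467 in ND). The member ylmH (NO13G00770), whose displayed description is an RNA-binding protein and which entered through a photosystem II S4 domain in its NCBI text, had 29.1 ± 1.22 and 25.7 ± 1.59 CPM and was not called (-0.17 ± 0.12, adjusted p = 0.196).

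The deposited gene lengths, which differ between libraries for genes with several transcripts, give a second readout for the 14 members with more than 1 transcript. In 6 of them the lengths of the conditions did not overlap: 3 petC-1 models, ylmH, PPD3 and ATPC. The same held for 25.3% of the 3742 genes tested that have more than 1 transcript. The 3 petC-1 models have shared reads, and their lengths are uncertain to that extent. For NO05G02060 the length in ND culture 1 (1303 bases) comes from a library with 0 estimated counts of that gene, so it measures no transcript. PPD3 averaged 1031 ± 2.74 bases in NR and 1055 ± 6.44 in ND, ylmH 1459 ± 18.9 and 1501 ± 4.37, and the petC-1 model NO05G02050 1284 ± 2.60 and 1340 ± 15.5. No antenna gene with 2 transcripts was among the 6, and CAB6A, for example, averaged 1277 ± 23.6 and 1287 ± 19.9 bases. No test was run on these lengths.

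Genes outside the 43 were drawn from 4 lists of related functions, matched on names and Swiss-Prot descriptions. Their counts stand beside 35.5% of all genes tested that fell and 35.7% that rose, and no list was tested as a set. For the xanthophyll cycle and energy quenching, 5 of 9 fell and 2 rose (median -0.90). Zeaxanthin epoxidase (NO07G03040, shared reads), which returns zeaxanthin to violaxanthin, changed by -1.27 ± 0.05, from 936 ± 22.9 to 389.6 ± 24.4 CPM. Of the VDE1 genes, named for violaxanthin de-epoxidase, NO24G00840 (-1.16 ± 0.08) and NO11G00920 (-1.61 ± 0.11) fell and NO08G01830 (+0.63 ± 0.06) rose. NO20G02350 and NO03G00410 were not called. These VDE1 genes were named after their values were seen. Of the 3 LHCSR1 genes, NO02G05990 (-1.53 ± 0.04) and NO07G03080 (-0.90 ± 0.13) fell and NO18G00330 rose (+1.16 ± 0.04); NO07G03080 was named after its values were seen. For photosystem assembly, thylakoid insertion and repair 13 of 23 fell and 6 rose (median -0.45). Here the smallest p-values were those of a putative thylakoid lumen peptidyl-prolyl isomerase (NO01G04860, -1.88 ± 0.06, 311 ± 3.93 to 85.0 ± 3.42 CPM) and 2 genes named for HCF173, which in plants is needed to translate psbA messenger RNA (NO01G04480, -1.44 ± 0.05; NO01G03810, -1.11 ± 0.05).

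For alternative and auxiliary plastid electron transport 3 of 5 fell and 1 rose (median -0.63). The thioredoxin-like HCF164 (NO26G01640), which in plants acts in cytochrome b6f assembly and also counts in the assembly list, fell (-1.17 ± 0.07), as did the catalytic chain of ferredoxin-thioredoxin reductase, ftrC (NO01G00900, shared reads, -0.81 ± 0.10). The mitochondrial alternative oxidase aox1 (NO02G00290), which the search term also drew in, rose (+0.51 ± 0.05). For iron-sulfur cluster and quinone assembly 5 of 14 fell and 4 rose (median -0.05), a share of falls near that of all genes. The search terms also drew in genes with other roles, among them NIFU4 (NO02G02640), described as mitochondrial (+0.24 ± 0.07), and hmgA (NO05G00600), which breaks down homogentisate (-0.37 ± 0.08). HST (NO03G05740), which makes the precursor of plastoquinone, fell from 104 ± 6.01 to 41.7 ± 0.984 CPM (-1.32 ± 0.08), NIFU1 (NO18G01900) changed by -0.96 ± 0.06, and the iron-sulfur carrier HCF101 (NO04G03240), counted here and in the assembly list, rose (+0.99 ± 0.09).

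The authors' deposited table of ND against NR, in which every listed gene has an absolute log2 change above 1, held 2057 genes, 1204 lower in ND (11.5% of the 10481) and 853 higher. It held 29 of the 43, all with negative values: all 21 antenna genes and 8 of the 22 others. In that table FCPA has a log2 change of -7.28, psbQ NO16G02690 -4.12 and psbO NO24G01680 -2.35.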

How the data were processed

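RNA was measured in 6 libraries, 3 ND and 3 NR, extracted with Trizol and prepared by Illumina protocols, per the labels' protocols. Of tools, the submitters' processing notes list edgeR, StringTie, featureCounts, Picard, STAR and Trim Galore, without roles; build and quantifier were not given in the sources used here. The authors deposited, per the file headers, an estimated count (expected count), a TPM and an FPKM per gene, with gene lengths, and 79.6% to 80.9% of genes had whole counts in a library. The authors' deposited comparison gives a log2 fold change with a p-value and FDR.

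After rounding of the estimated counts, edgeR 4.0.16 (R 4.3.3) was run with TMM (trimmed-mean) scaling, the filterByExpr filter and its quasi-likelihood F test, without a block, at a Benjamini-Hochberg threshold of 0.05; the script was tested on simulated data. SE is the absolute log2 change over the square root of F. Scaling factors were 0.89, 0.89 and 0.908 in NR and 1.111, 1.114 and 1.123 in ND, so changes in TPM, which lacks this scaling, differ from changes in normalised CPM. The biological coefficient of variation was 0.0475.

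The members and lists were chosen with earlier results of these data known. Named genes are the 5 highest by TPM among antenna, photosystem II, cytochrome b6f with carriers, ATP synthase and remaining members, the 6 largest called changes in antenna and in the others, those higher or not called, and the 3 smallest p-values of each other list; further members and pairs were named after their values were seen. Alternatives were other scalings, filters, thresholds, DESeq2 1.42.0, limma 3.58.1 on log2(FPKM + 1) or log2(FPKM + 0.1), a replicate block, leaving out each culture, and subsets of members.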

Additional observations from a re-analysis of the deposited data

How the results depend on the processing

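All 21 antenna genes stayed lower in every fit across all genes, and 317 antenna results, counted by gene and setting, kept direction and side of the threshold. Genes higher and lower numbered 5075 and 2149 with library totals alone, 5090 and 2031 with log2(FPKM + 1), 5059 and 2019 with log2(FPKM + 0.1), and 1298 and 1559 when tested against 1.5 times, where 9 photosystem and electron transport genes fell. Members of that class called higher numbered 0 at adjusted p 0.01, with the replicate block, RLE, DESeq2 and 1.5 times, 2 with upper-quartile factors, 4 with library totals, 3 in both FPKM fits, and 0 to 1 with a culture left out. Median changes of all genes, antenna and the other class were 0.132, -2.741 and -0.566 with upper-quartile factors, 0.34, -2.533 and -0.359 with library totals, 0.344, -2.485 and -0.365 with log2(FPKM + 1), and 0.363, -2.491 and -0.37 with log2(FPKM + 0.1). RLE gave 0.009 for all genes and -0.69 for the other class, and DESeq2 0.01 for all genes. Leaving out a culture gave 0.014 to 0.028, -2.862 to -2.803 and -0.71 to -0.637. Whole-count members gave -2.638 and -0.774, and leaving out members chosen by the NCBI description alone gave -0.739. By estimated counts the shares were 3.368% and 0.478% (antenna, NR and ND) and 0.973% and 0.454% (other class), with a log2 ratio of the classes (ND minus NR) of -1.714 beside -1.189 by TPM; without the most abundant member of each class they were 3.7%, 0.693%, 0.967% and 0.484%, and -1.417.

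Genes not called in the main comparison changed sign: NO05G02030 (0.101 upper-quartile, 0.309 totals and then called higher, 0.306 and 0.317 FPKM, -0.115 to 0.091 with a culture left out), NO07G02610 (0.139 totals, 0.144 and 0.155 FPKM), NO13G00770 (0.146, 0.103 and 0.107) and NO10G01860 (-0.011 to 0.058 with a culture left out). The causes were not tested. NO05G02070 kept its sign in each fit of the gene itself, and the sum of the 4 petC-1 models, a different quantity, was negative (-0.39). That sum, the FCPE sum and the antenna without LHCSR or LI818 descriptions were chosen after seeing the data. In their deviations from the condition means, same-numbered cultures correlated at 0.021, 0.036 and 0.087, and differently numbered ones at -0.061 to 0.023. The labels do not say that same-numbered cultures are paired, so the main fit had no block. With the replicate block 3298 genes were higher and 3292 lower, with 21 antenna and 16 other members lower.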
